A study of Mus musculus with 12 samples.

Results

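The comparison described here asks what changed in liver immune cells when an antibody to PD-L1 was given on top of polyIC. It sets the 3 combination libraries against the 3 polyIC libraries, 6 of the 12 libraries in the series. Each library is bulk RNA from CD45-positive cells of C57BL/6 livers, captured with PE-labelled anti-CD45 and magnetic beads. CD45, the product of Ptprc, is a surface phosphatase found on nearly all blood-derived cells.

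Combination mice received 4 mg/kg of polyIC on days 14, 16, 18, 20 and 22 and 200 µg of PD-L1 antibody on days 17, 19 and 21. PolyIC mice had the same polyIC schedule with 200 µg of IgG in place of the antibody. The antiPDL1 and control groups had PBS in place of polyIC, with the antibody and with IgG in that order, and are used here for the same antibody difference without polyIC. In every group the livers had been transfected on day 0 with the human oncogenes c-Myc and N-ras by hydrodynamic injection. This method pushes plasmid into hepatocytes with a fast, large intravenous volume, so the oncogenes enter a share of hepatocytes of an otherwise normal liver. The promoter driving the oncogenes, the age and sex of the mice and the presence of tumours are not stated in the labels. Livers were taken on day 24 by the treatment protocol, or on day 22 by the label of the time point. The labels do not say that the 3 libraries of a group came from separate mice, so p-values measure the spread between libraries, which may be technical.

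PolyIC is a synthetic double-stranded RNA that imitates viral RNA. TLR3 in endosomes and MDA5 (Ifih1) in the cytosol sense it and start type I interferon production, which activates NK cells and dendritic cells. PD-L1 (Cd274) binds PD-1 (Pdcd1) on activated T cells and damps their signalling, and antibodies that block it release that brake. Interferon gamma, made by T and NK cells, acts on most other cells and raises antigen presentation, the CXCR3-binding chemokines Cxcl9 and Cxcl10, and PD-L1 itself.

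Levels are FPKM, fragments scaled by transcript length and by library size. Differences are log2(FPKM + 1) in combination minus polyIC, which understates the change of low genes. Of 24319 genes and transcripts in the table, 22 were left out because a whole group was listed at 0 while every library of another group reached 5 FPKM. Actb, Cd74, Psap and Tmsb4x were among them, listed at 0 in all 3 combination libraries, and get no difference here. Just inside that rule was Fdft1, at 6.83, 7.39 and 6.71 FPKM in the combination libraries and 0 in control, and just outside it was Mir760, with a control library at 4.21 FPKM. The 11978 genes that reached 1 FPKM in 3 or more libraries were tested with limma across all 12 libraries, and a call needed a Benjamini-Hochberg adjusted p under 0.05. FPKM totals were 624568 to 674810 in the combination libraries and 569705 to 677535 in the polyIC libraries. Relative sequencing depth, read from the spacing of the lowest values, was 0.640 to 1 in the combination libraries and 0.535 to 0.562 in the polyIC libraries. The groups did not overlap in depth, and its part in the results was not tested. Ptprc was at 381, 480 and 487 FPKM in the combination libraries, against 379, 416 and 371 FPKM in the polyIC libraries, a difference of 0.20 that did not pass (limma, adjusted p = 0.628). In a principal component analysis of the 6 libraries, component 1 held 47.8% of the variance, with combination at 19.4 to 40.4 and polyIC at -20.3 to -36.2.

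The combination libraries of CD45-captured cells held more RNA of a small set of genes. Among them were Gcg, with the largest rise, and Il21, Il10, Ifng, Tnfrsf4 and Cd4, which T cells express. The same libraries held less RNA of hepatocyte, sinusoidal endothelial and NK receptor genes. In all, 149 of 11978 genes (1.24%) passed the threshold, 19 higher (0.159%) and 130 lower (1.09%). Without regard to the test, 1595 genes (13.3%) were higher in every combination library than in any polyIC library, and 1934 genes (16.1%) were lower in every combination library. Such genes are called separate below, and these shares are the background for the counts of them in lists. At an unadjusted p under 0.05 there were 514 higher and 1110 lower genes. The 149 calls lay close to the threshold, with adjusted p-values from 0.012 to 0.0497 by limma.

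That number depended on which libraries entered the fit. Leaving out combination replicate 0, 1 or 2 left 3, 1 and 0 calls in that order, and leaving out polyIC replicate 0, 1 or 2 left 4, 0 and 1 calls. Leaving out control replicate 1 also left 3 calls. In contrast, 383 and 534 genes passed without control replicate 0 and 2, and 496 without antiPDL1 replicate 2. Quantile normalization left 2 higher and 1 lower call, whereas a fit of only the 6 libraries gave 323 higher and 1035 lower calls. Each of the 149 genes kept its direction under the 9 other settings, wherever it was tested, and the 12 leave-outs. With a library of the compared groups left out, Orm2 still passed in 4 of 6 fits, Il21 in 2, and Elane, Mpo and Htra1, a secreted protease, in 1 each.

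**Figure D1:**
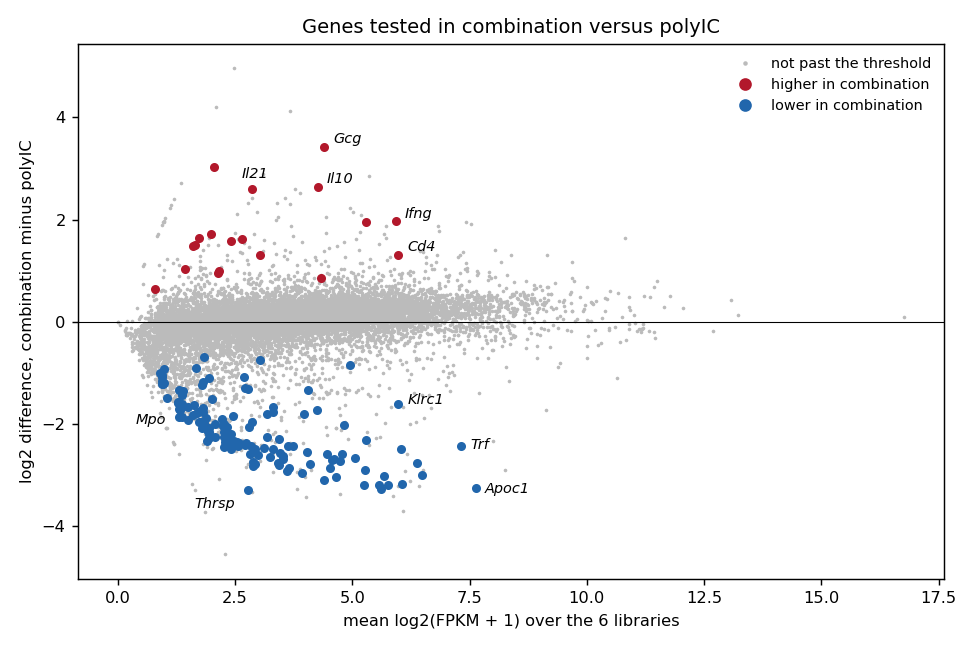
Each point is 1 of the 11978 genes tested, with the mean log2(FPKM + 1) over the 6 libraries on the horizontal axis and the log2 difference, combination minus polyIC, on the vertical axis. The 19 red genes passed as higher and the 130 blue genes as lower; the blue genes form a band below the bulk of genes, down to -3.29 for Thrsp.

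Il10, Il21 and Ifng, cytokines that T cells make, were among the genes that rose. Il21, the cytokine of follicular and peripheral helper T cells that sustains CD8 T cells and B cells, was at 9.96, 24.2 and 19.9 FPKM in the combination libraries, against 2.95, 1.52 and 1.64 FPKM in the polyIC libraries. The lowest combination library was more than 3 times the highest polyIC library, and the log2 difference was 2.60 (SE 0.32, limma adjusted p = 0.029). Il10, an anti-inflammatory cytokine of regulatory and chronically stimulated T cells and of macrophages, was at 30.9, 79.2 and 42.6 FPKM in the combination libraries, against 8.05, 4.94 and 7.63 FPKM in the polyIC libraries. The groups were separate, with combination replicate 1 highest, and the difference was 2.64 (SE 0.50, limma adjusted p = 0.0374). Ifng was at 82.6, 151 and 135 FPKM in the combination libraries, against 35.2, 34.8 and 21.6 FPKM in the polyIC libraries. Again every combination library was above every polyIC library, with means of 123 ± 35.9 FPKM in combination and 30.5 ± 7.78 FPKM in polyIC (SD, n = 3 each) and a difference of 1.96 (SE 0.34, limma adjusted p = 0.0374). Of the 14 T helper cytokine and lineage genes listed, 6 could be tested, and these 3 rose (list median 1.13, or 1.96 over the genes with a mean of at least 5 FPKM). Il4, Gata3 and Tbx21 differed by 0.30, -0.05 and -0.17 and did not pass. Il5, Il9, Il17f and Il22 were listed at 0 in all 6 libraries.

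The promoter of Ifng is shown because T helper cytokines and interferon gamma response genes had the highest medians of all gene lists. The 250 bases before its annotated start lie at chr10:118440796-118441045 on the plus strand of GRCm38.p6 (RefSeq). Capitals mark a GAS element, TTCNNNGAA, the motif read by STAT dimers, 249 to 241 bases before the start. The same 250 bases of Il21 and of Gcg, which also rose, held no such element and are not shown.
Ifng: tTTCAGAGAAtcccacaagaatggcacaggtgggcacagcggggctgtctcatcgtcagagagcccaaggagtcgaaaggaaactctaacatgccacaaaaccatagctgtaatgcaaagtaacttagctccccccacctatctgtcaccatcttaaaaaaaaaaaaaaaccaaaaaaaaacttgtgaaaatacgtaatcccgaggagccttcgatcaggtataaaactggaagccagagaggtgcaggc

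Among surface receptors of T cells, Cd4, the coreceptor of helper T cells, was at 83.4, 127 and 89.0 FPKM in the combination libraries, against 39.8, 40.2 and 36.9 FPKM in the polyIC libraries. All 3 combination libraries were above the tightly grouped polyIC libraries (difference 1.31, SE 0.27, limma adjusted p = 0.0443). Tnfrsf4 encodes OX40, a costimulatory receptor of activated T cells, and was at 65.0, 93.5 and 72.2 FPKM in the combination libraries, against 25.2, 14.6 and 17.9 FPKM in the polyIC libraries. The groups did not overlap (difference 1.96, SE 0.41, limma adjusted p = 0.0467). In bulk RNA of sorted cells, more cells of a type and more RNA per cell cannot be told apart.

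Cd4 was 1 of 18 T cell identity genes tested and the only member that passed. Of the 18, 10 were higher in every combination library and none was lower, with a median difference of 0.60 beside 0.06 for all genes tested. The summed level of the list was 2917 to 3817 FPKM in the combination libraries, against 1795 to 2583 FPKM in the polyIC libraries. Of 12 TNF family costimulation genes tested, Tnfrsf4 passed and 7 were separate and higher (median 0.57); the others ranged from -0.36 for Tnfsf14 to 1.40 for Cd40. Tnfsf4, the ligand of OX40, differed by 1.29 without passing, and Cd40, the activating receptor of B cells, dendritic cells and macrophages, did not pass either. Of 9 regulatory T cell genes tested, Il10 passed, 5 were separate and higher and 2 were separate and lower. Foxp3, their lineage factor, was at 14.4, 5.34 and 8.50 FPKM in the combination libraries, against 9.54, 6.51 and 7.57 FPKM in the polyIC libraries. These ranges overlapped (difference 0.15, SE 0.33, limma adjusted p = 0.85). Ccr8, a chemokine receptor of activated regulatory T cells, differed by 1.98 and did not pass (limma adjusted p = 0.0697).

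Cytotoxic genes went in both directions. Cd8a, the coreceptor of CD8 T cells, was at 200.5, 183 and 168 FPKM in the combination libraries, against 218, 131 and 149.8 FPKM in the polyIC libraries, with overlapping ranges and a difference of 0.17 (SE 0.53, limma adjusted p = 0.894). The difference between Cd4 and Cd8a was not tested. Gzmb, the granzyme of activated killer cells, was at 864, 1587 and 1036 FPKM in the combination libraries, against 755, 706 and 509 FPKM in the polyIC libraries. Gzmk, a granzyme of memory and exhausted CD8 T cells, was at 487, 628 and 465 FPKM in the combination libraries, against 270.2, 188 and 183 FPKM in the polyIC libraries. Both granzymes were separate and higher in combination, by 0.80 and 1.31, without passing (limma adjusted p = 0.535 and 0.476). Prf1, the pore-forming perforin, stood at 134, 127 and 123 FPKM in the combination libraries, against 77.4, 98.6 and 76.3 FPKM in the polyIC libraries (difference 0.61, limma adjusted p = 0.515). Gzma, a granzyme that resting NK cells also hold, went the other way, at 1112, 920.4 and 1261 FPKM in the combination libraries, against 1841, 3147 and 2226 FPKM in the polyIC libraries. Every combination library was below every polyIC library, and the difference of -1.11 did not pass (limma adjusted p = 0.295). Over the 21 tested CD8 and cytotoxic genes, Ifng passed, 9 were separate and higher, 5 were separate and lower (Gzma, Xcl1, Ctsw, Gzmm and Klrg1), and the median was 0.36, or 0.24 under quantile normalization.

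Inhibitory receptors mark the activated and exhausted T cells on which PD-1 blockade acts. Pdcd1 was at 204, 267 and 188 FPKM in the combination libraries, against 197, 76.3 and 93.0 FPKM in the polyIC libraries. PolyIC replicate 0 lay within the combination range, and the difference of 0.95 (SE 0.75) did not pass (limma adjusted p = 0.596). Lag3, an inhibitory receptor for MHC class II, was at 295, 295 and 206 FPKM in the combination libraries, against 147, 90.3 and 77.6 FPKM in the polyIC libraries. Havcr2, which encodes TIM-3, stood at 71.7, 56.7 and 65.8 FPKM in the combination libraries, against 37.2, 37.2 and 33.7 FPKM in the polyIC libraries. Ctla4, the inhibitory competitor of CD28, was at 58.2, 131 and 102 FPKM in the combination libraries, against 43.4, 18.8 and 28.8 FPKM in the polyIC libraries. All 3 of these were separate and higher in combination, by 1.36, 0.82 and 1.64, and none passed (limma adjusted p = 0.257, 0.293 and 0.212). Batf, a transcription factor of effector and exhausted T cells, differed by 1.27 (limma adjusted p = 0.228), also without overlap. In the list of 20 inhibitory and exhaustion genes, 8 were separate and higher and 2, Cd160 and Cd244, separate and lower; none passed, and the median of 0.45 became 0.74 without polyIC replicate 0, 0.30 without combination replicate 0 and 0.28 with array quality weights.

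The gene of the antibody's target, Cd274, was at 31.3, 42.8 and 38.1 FPKM in the combination libraries, against 19.3, 24.1 and 16.2 FPKM in the polyIC libraries. The groups did not overlap, and the difference of 0.89 (SE 0.35) did not pass (limma adjusted p = 0.284). The antibody binds the protein, so its RNA does not check the treatment. Pdcd1lg2, the other PD-1 ligand, stood at 4.12, 3.24 and 3.85 FPKM in the combination libraries, against 2.76, 3.51 and 2.52 FPKM in the polyIC libraries, with overlapping ranges (difference 0.27, limma adjusted p = 0.656). Cd276, the gene of B7-H3, differed by 0.41 at levels of 2.02, 2.14 and 1.31 FPKM in the combination libraries, against 1.07, 1.2 and 1.1 FPKM in the polyIC libraries (limma adjusted p = 0.228).

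**Figure D2:**
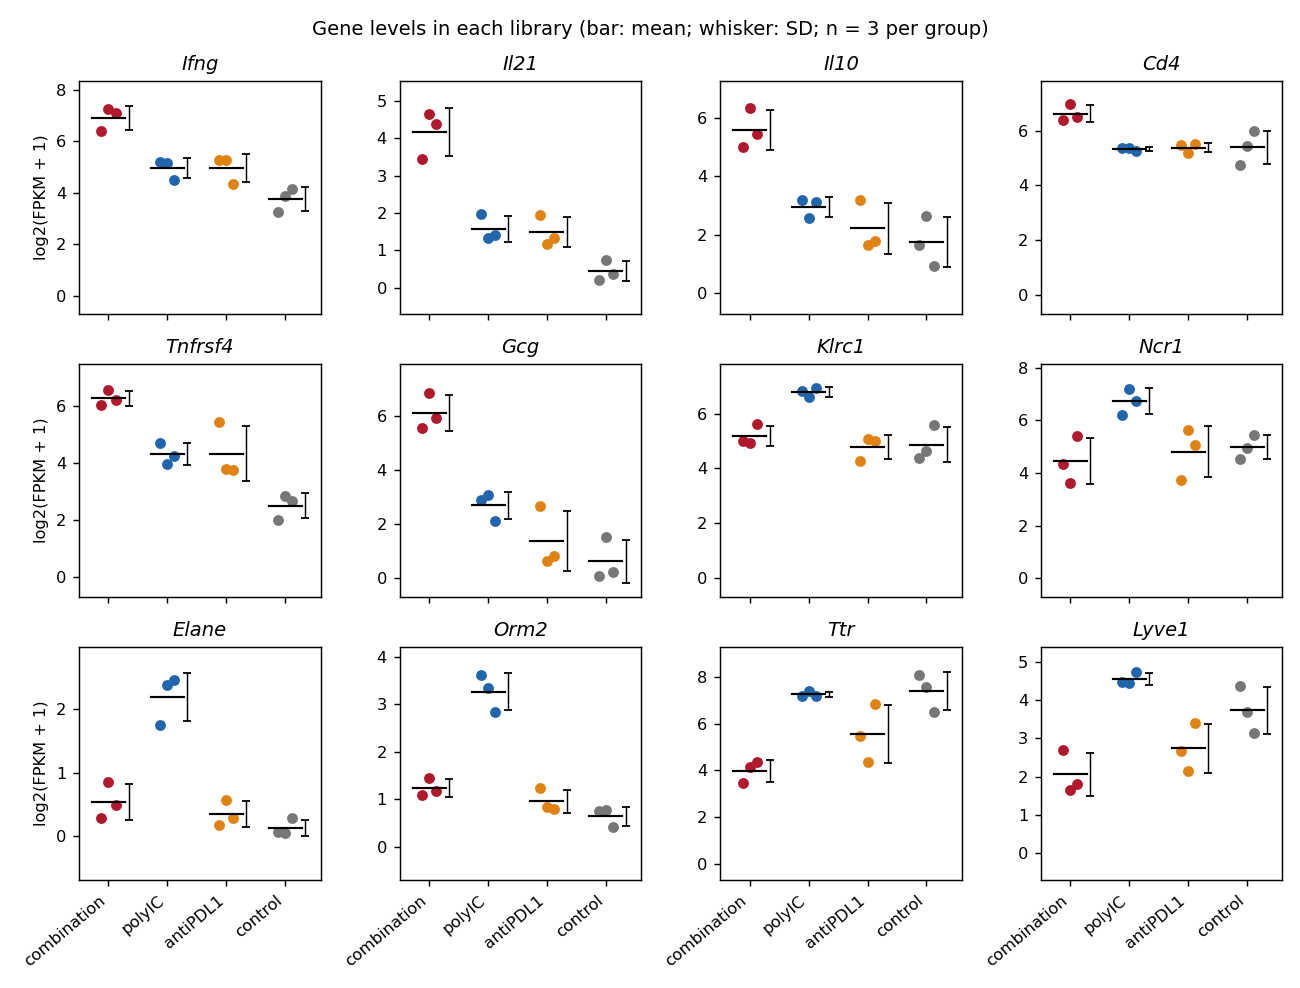
Each point is 1 library, the vertical axes give log2(FPKM + 1), the bars are group means and the whiskers SD (n = 3 per group), with combination leftmost and control rightmost. Ifng, Il21, Il10, Cd4, Tnfrsf4 and Gcg are highest in combination, whereas Klrc1, Ncr1, Elane and Orm2 are highest in polyIC and Ttr and Lyve1 are lowest in combination.

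Most interferon gamma response genes had higher levels in every combination library, although none passed. Of 27 tested, 23 were higher in every combination library and none was lower, beside 13.3% of all genes on the same count. Their median difference was 1.03, and their summed level was 2688 to 2991 FPKM in the combination libraries, against 1157 to 1549 FPKM in the polyIC libraries. Cxcl9, a chemokine that draws CXCR3-bearing T cells, was at 261, 181 and 203 FPKM in the combination libraries, against 81.0, 55.0 and 52.2 FPKM in the polyIC libraries. Cxcl10, another ligand of CXCR3, was at 195, 229 and 222 FPKM in the combination libraries, against 76.6, 66.5 and 38.6 FPKM in the polyIC libraries. Their differences of 1.77 and 1.87 did not pass (limma adjusted p = 0.124 each), although the lowest combination library was more than 2 times the highest polyIC library for both.

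Irf1, a transcription factor of the same pathway, was at 226, 263 and 263 FPKM in the combination libraries, against 145, 150.0 and 78.3 FPKM in the polyIC libraries. The groups were separate, and the difference of 1.06 did not pass (limma adjusted p = 0.214). Socs3, a feedback inhibitor of JAK-STAT signalling, was at 33.7, 67.4 and 34.7 FPKM in the combination libraries, against 9.77, 13.9 and 6.49 FPKM in the polyIC libraries. Irg1, the macrophage enzyme that makes itaconate, was at 33.4, 32.5 and 36.8 FPKM in the combination libraries, against 5.17, 7.23 and 3.54 FPKM in the polyIC libraries. These were the members with the smallest unadjusted p, with differences of 2.05 and 2.52 (limma adjusted p = 0.0544 and 0.0624). Igtp, an interferon-inducible GTPase chosen for display after its values were seen, was at 155, 137 and 134 FPKM in the combination libraries, against 74.6, 67.7 and 50.1 FPKM in the polyIC libraries (difference 1.15). Nos2, the inducible nitric oxide synthase, was low, at 1.02, 1.09 and 0.557 FPKM in the combination libraries, against 0.0909, 0.163 and 0.108 FPKM in the polyIC libraries (difference 0.74, limma adjusted p = 0.374). Ido1, a tryptophan-degrading enzyme, stayed under the filter at 0.271, 0.369 and 0.274 FPKM in the combination libraries, against 0.135, 0.244 and 0.207 FPKM in the polyIC libraries.

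Promoters of 3 of these genes show the motifs that interferon-activated factors read, GAS (TTCNNNGAA) and ISRE (GAAA, any 2 bases and GAAA again, bound by interferon regulatory factors). Each is the 250 bases before an annotated start in RefSeq on GRCm38.p6, with the motifs in capitals. Irf1 lies at chr11:53769764-53770013 on the plus strand, with a GAS element 90 to 82 bases before the first of its 2 listed starts. The 250 bases before its other start held neither motif and are not shown. Igtp lies at chr11:58199306-58199555 on the plus strand, with a GAS element 45 to 37 and an ISRE 34 to 25 bases before the start. Cxcl10 lies at chr5:92348890-92349139 on the minus strand, with an ISRE 213 to 204 bases before the start.
Irf1: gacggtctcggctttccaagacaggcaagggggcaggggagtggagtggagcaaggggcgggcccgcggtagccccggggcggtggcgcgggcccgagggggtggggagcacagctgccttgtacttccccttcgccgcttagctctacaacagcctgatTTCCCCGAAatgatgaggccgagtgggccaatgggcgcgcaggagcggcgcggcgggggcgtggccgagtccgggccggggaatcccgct
Igtp: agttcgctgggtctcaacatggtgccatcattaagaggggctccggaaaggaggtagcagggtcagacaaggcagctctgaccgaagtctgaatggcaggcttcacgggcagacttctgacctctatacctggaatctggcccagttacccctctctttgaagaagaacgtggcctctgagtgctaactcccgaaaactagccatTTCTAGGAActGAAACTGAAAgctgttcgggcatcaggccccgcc
Cxcl10: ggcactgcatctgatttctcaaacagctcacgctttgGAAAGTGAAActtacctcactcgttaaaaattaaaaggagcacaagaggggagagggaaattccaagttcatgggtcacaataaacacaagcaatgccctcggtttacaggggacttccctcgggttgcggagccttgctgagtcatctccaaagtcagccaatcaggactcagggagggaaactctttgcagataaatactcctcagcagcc
Both strands were searched. GAS was found in the promoters of 10 of 17 interferon gamma response genes that had an entry (58.8%), beside 7.34% of the 9120 tested genes with a promoter, and ISRE in 10 of 17 (58.8%) beside 3.45%. Among the genes that rose, GAS was in 2 of 15 promoters (13.3%) and ISRE in none. The differences between these shares were not tested.

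Type I interferon genes, the direct output of polyIC sensing, did not move in 1 direction. Of 34 tested, none passed and the median was 0.12. In this list 7 were separate and higher, beside 13.3% of all genes, and 4 separate and lower, beside 16.1%. Ifit1, an RNA-binding antiviral protein, was at 20.0, 22.3 and 26.1 FPKM in the combination libraries, against 20.1, 20.2 and 19.0 FPKM in the polyIC libraries (difference 0.19, limma adjusted p = 0.829). Isg15, a ubiquitin-like modifier, was higher without overlap at 130, 187 and 215 FPKM in the combination libraries, against 110, 96.2 and 75.3 FPKM in the polyIC libraries (difference 0.90, limma adjusted p = 0.558). Rsad2, which encodes viperin, was lower without overlap at 15.5, 10.9 and 14.2 FPKM in the combination libraries, against 21.2, 19.5 and 25.2 FPKM in the polyIC libraries (difference -0.66, limma adjusted p = 0.363). Zbp1, a sensor of Z-form nucleic acid, differed by 1.26 (limma adjusted p = 0.295). The list median fell to 0.07 under quantile normalization and to -0.005 without polyIC replicate 2.

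No sensor of polyIC passed. Tlr3 was at 12.1, 5.18 and 9.30 FPKM in the combination libraries, against 7.69, 12.7 and 15.0 FPKM in the polyIC libraries. Ifih1 was at 18.2, 21.5 and 23 FPKM in the combination libraries, against 18.7, 17.8 and 15.3 FPKM in the polyIC libraries. Both overlapped, with differences of -0.40 and 0.26 (limma adjusted p = 0.637 and 0.673). Among 13 sensing genes, 4 were separate and higher, beside 13.3% of all genes, and none passed. The 4 included Tmem173 (STING) by 0.60 and the kinase Ikbke by 0.65.

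No gene of the antigen presentation lists passed. Of 17 MHC class I and immunoproteasome genes, 10 were separate and higher and none separate and lower, with a median of 0.60. The peptide transporter Tap1 and the proteasome activator Psme2 differed by 0.80 and 0.96, whereas H2-K1, H2-D1 and B2m, the class I chains themselves, differed by 0.22, 0.09 and 0.14. Ciita, the master regulator of MHC class II, was at 34, 33.6 and 26.4 FPKM in the combination libraries, against 15.8, 22.5 and 13.6 FPKM in the polyIC libraries (difference 0.84, limma adjusted p = 0.158). The class II list of 10 genes went in both directions, with 5 separate and higher, and with H2-Ob, a chain of the inhibitor of peptide loading, separate and lower (-0.84). H2-DMb2, H2-Eb2 and H2-Oa also had negative differences (-0.49, -0.32 and -0.23). The median was 0.51, and 0.24 under quantile normalization, 0.31 without combination replicate 0 and 0.19 with array quality weights.

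Most NK cell genes had lower levels in every combination library. Of 20 tested, 17 were lower in every combination library, beside 16.1% of all genes, and 1, Eomes, was separate and higher. Their summed level was 3478 to 4330 FPKM in the combination libraries, against 5329 to 7483 FPKM in the polyIC libraries, and the median difference was -1.55. Klrc1, the inhibitory receptor NKG2A of NK and some CD8 T cells, was at 30.6, 29.6 and 47.5 FPKM in the combination libraries, against 113, 96.4 and 122 FPKM in the polyIC libraries. It was the member of the list that fell past the threshold (difference -1.62, SE 0.32, limma adjusted p = 0.0402), and the groups were far apart. Ncr1, the activating receptor NKp46 and the most specific NK marker of the list, was at 19.5, 11.3 and 40.9 FPKM in the combination libraries, against 73.0, 145 and 106 FPKM in the polyIC libraries. These did not overlap, and the difference of -2.26 (SE 0.52) did not pass (limma adjusted p = 0.0615).

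The killer cell lectin-like receptor family was grouped by symbol after the values were seen. Of 28 Klr genes tested, 24 were lower in every combination library, 6 passed (Klrb1, Klrb1a, Klrc1, Klrc3, Klra19 and the pseudogene Klra14-ps), and the median was -1.48. Over all genes tested, 16.1% were lower in every combination library and 1.09% fell past the threshold. Klrb1 reached 1 FPKM in the polyIC libraries alone and entered the test only through them. Some Klr genes are near-identical copies of each other, so reads may be split among those. Klrb1a, of the NKR-P1 receptors, was at 4.74, 1.83 and 8.10 FPKM in the combination libraries, against 20.0, 30.2 and 34.7 FPKM in the polyIC libraries (difference -2.44, SE 0.49, limma adjusted p = 0.0409). Klrc3, of the NKG2 receptors, was at 0.943, 0.602 and 1.41 FPKM in the combination libraries, against 4.18, 7.79 and 4.61 FPKM in the polyIC libraries (difference -1.70, SE 0.26, limma adjusted p = 0.0357). Klra19, of the Ly49 receptors, was at 0.986, 1.52 and 1.54 FPKM in the combination libraries, against 3.51, 5.15 and 4.41 FPKM in the polyIC libraries (difference -1.19, SE 0.21, limma adjusted p = 0.0374). Sh2d1b2, an adaptor of NK cell receptors chosen for mention after its values were seen, fell to 1.15, 0.408 and 1.26 FPKM in the combination libraries, against 3.68, 8.61 and 4.97 FPKM in the polyIC libraries (limma adjusted p = 0.0367). In all of these each combination library was below each polyIC library.

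Macrophage genes of the liver showed the largest differences of any immune list, with no call. Of 17 Kupffer cell genes tested, 13 were lower in every combination library, beside 16.1% of all genes, and none higher. The median was -2.33. Their sum was 627 to 1074 FPKM in the combination libraries, against 2129 to 3245 FPKM in the polyIC libraries. Clec4f, the lectin that marks Kupffer cells in mice, was at 39.5, 5.22 and 25.0 FPKM in the combination libraries, against 91.6, 493 and 315 FPKM in the polyIC libraries. Vsig4, a complement receptor of resident macrophages, was at 30.4, 7.91 and 20.1 FPKM in the combination libraries, against 81.4, 289 and 291 FPKM in the polyIC libraries. Folr2, a folate receptor of resident macrophages, was at 31.6, 15.9 and 28.5 FPKM in the combination libraries, against 141, 226 and 218 FPKM in the polyIC libraries. The groups were separate for each of the 3, while combination replicate 1 and polyIC replicate 0 stood apart from their own groups for Clec4f. Differences were -3.70, -3.40 and -2.92, with limma adjusted p-values of 0.0819, 0.0892 and 0.066. Cd5l, a Kupffer cell protein left out of the test because the control group was listed at 0, had 559, 224 and 377 FPKM in the combination libraries, against 1205, 1396 and 1448 FPKM in the polyIC libraries.

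General macrophage genes differed less. C1qa, a chain of complement C1q, was at 722, 522 and 364 FPKM in the combination libraries, against 1013, 869 and 845 FPKM in the polyIC libraries (difference -0.81, limma adjusted p = 0.521). Adgre1, which encodes F4/80, differed by -1.0 and the clearance receptor Mertk by -1.12, both without overlap (limma adjusted p = 0.417 and 0.43). The median of the 14 C1q and macrophage genes was -0.45, and -0.26 without combination replicate 2; 6 were separate and lower. Of the suppressive and lipid-associated macrophage genes, Cd36, a lipid scavenger receptor, and Arg1, arginase, differed by -1.68 and -1.95 (limma adjusted p = 0.0598 and 0.133). Hepatocytes also express Arg1, which stands in the hepatocyte metabolic list as well. Monocyte genes had a median of 0.02, which was -0.08 without polyIC replicate 2 and 0.20 without polyIC replicate 1, and Ly6c2, a surface protein of inflammatory monocytes, was at 576, 453 and 652 FPKM in the combination libraries, against 411, 496 and 380 FPKM in the polyIC libraries, with overlapping ranges (difference 0.38, limma adjusted p = 0.748).

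Of 18 neutrophil genes, Elane and Mpo, both granule enzymes, fell. Elane, neutrophil elastase, was at 0.210, 0.796 and 0.402 FPKM in the combination libraries, against 2.39, 4.21 and 4.51 FPKM in the polyIC libraries (difference -1.67, SE 0.22, limma adjusted p = 0.030). Mpo, myeloperoxidase, was at 0.143, 0.378 and 0.363 FPKM in the combination libraries, against 1.82, 6.25 and 4.09 FPKM in the polyIC libraries (difference -1.87, SE 0.28, limma adjusted p = 0.0357). Both were under 1 FPKM in every combination library. They reached 1 FPKM in the polyIC libraries alone, so they entered the test only through the group where they were high. S100a8, the calprotectin chain abundant in mature neutrophils, was at 920.2, 1603 and 2892 FPKM in the combination libraries, against 2545, 2229 and 1563 FPKM in the polyIC libraries, with wide and overlapping ranges (difference -0.35, limma adjusted p = 0.777). Prtn3, another granule protease, differed by -0.61 with overlap, and Ltf, Camp and Ngp, of the secondary granules, by -1.69, -1.99 and -1.88 without overlap; none of these passed (limma adjusted p = 0.52, 0.199, 0.233 and 0.303). In all, 8 of the 18 were separate and lower and 2 separate and higher, and the summed level overlapped at 2079 to 5852 FPKM in the combination libraries, against 3550 to 6034 FPKM in the polyIC libraries.

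B cell genes and plasmacytoid dendritic cell genes were lower without single calls. All 16 B cell genes were lower in every combination library, beside 16.1% of all genes. Their median was -1.24 and their sum 224 to 378 FPKM in the combination libraries, against 504 to 744 FPKM in the polyIC libraries. Bank1, a B cell scaffold protein, had the smallest p of the list (difference -1.39, limma adjusted p = 0.0704). Of 14 plasmacytoid dendritic cell genes, 6 were separate and lower and the median was -1.02. Conventional dendritic cell genes had a median of 0.0004, from -0.19 without combination replicate 0 to 0.14 without polyIC replicate 1, with Ly75, the uptake receptor DEC-205, higher by 0.62 and Ccl17, a chemokine for CCR4, lower by 0.94, neither past the threshold (limma adjusted p = 0.129 and 0.206).

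**Figure D3:**
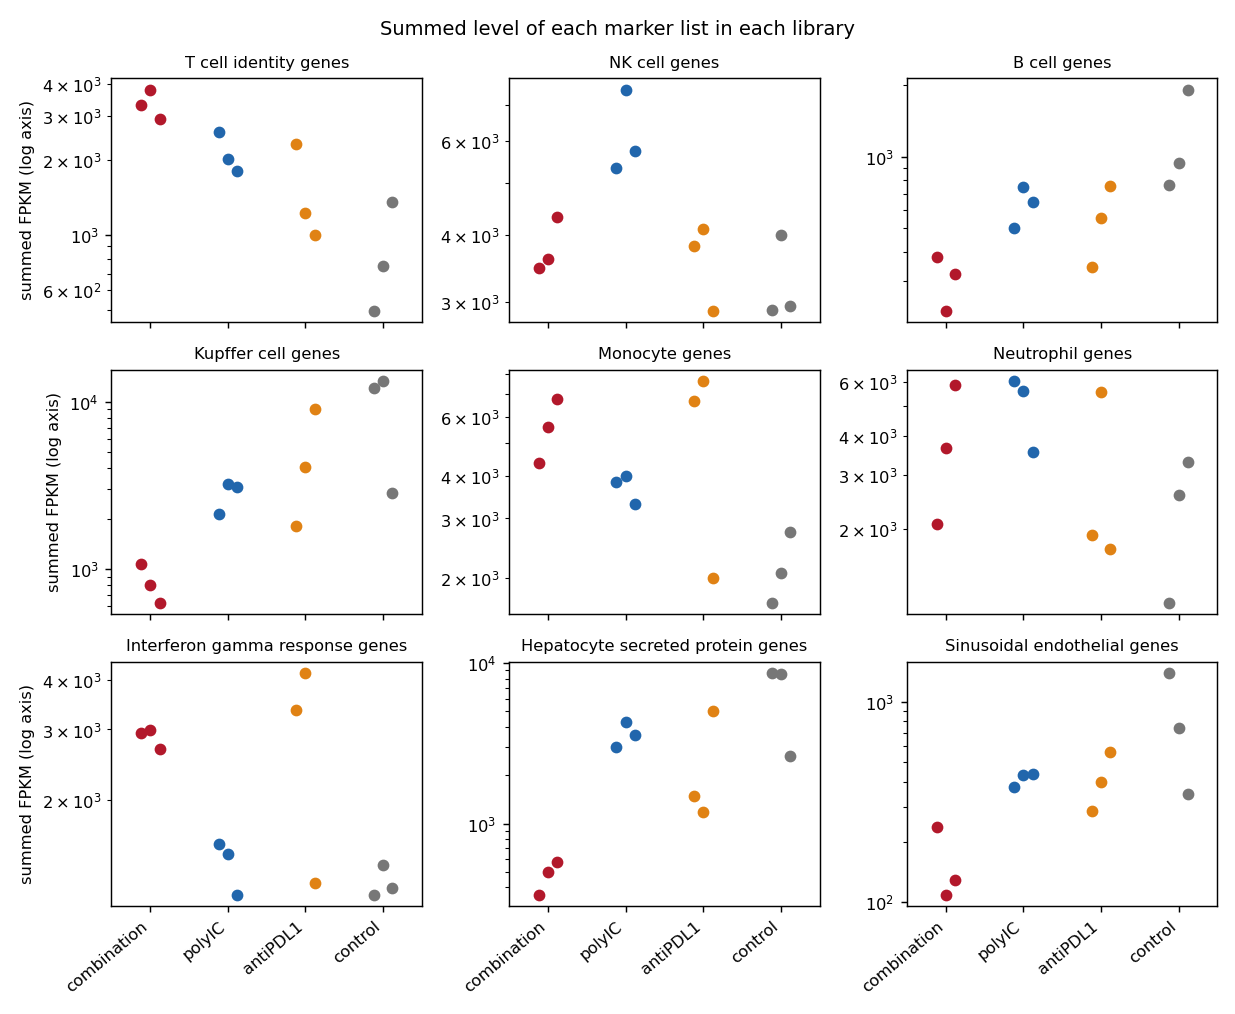
Each point is the summed FPKM of a marker list in 1 library, on log vertical axes, with the groups in the order combination, polyIC, antiPDL1 and control. Combination and polyIC do not overlap for T cell, NK cell, B cell, Kupffer cell, monocyte, interferon gamma response, hepatocyte or sinusoidal endothelial genes, and overlap for neutrophil genes.

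Hepatocyte genes were the main group among the falls that the lists cover. Of the 130 genes that fell, 38 were in a list, 28 of them in the hepatocyte lists, and 92 were in none. Of 24 hepatocyte secreted protein genes tested, 22 fell and all 24 were lower in every combination library, with a median of -2.75; their sum was 359 to 574 FPKM in the combination libraries, against 3004 to 4293 FPKM in the polyIC libraries. Of 23 hepatocyte metabolic genes, 6 fell and 22 were separate and lower (median -2.41). Over all genes tested, 1.09% fell and 16.1% were separate and lower. Hepatocytes do not carry CD45, so those members that hepatocytes alone express measure hepatocyte RNA within the sorted material. Apoc1 and Arg1 are in these lists, and macrophages express them too. The part of hepatocyte RNA in the other differences was not tested.

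Ttr, the thyroxine and retinol carrier transthyretin, was at 9.87, 16.4 and 19.5 FPKM in the combination libraries, against 143, 167 and 144 FPKM in the polyIC libraries. The mean was 15.3 ± 4.91 FPKM in combination and 151 ± 13.3 FPKM in polyIC (SD, n = 3 each), a difference of -3.27 (SE 0.55, limma adjusted p = 0.0374). Apoc3, an apolipoprotein that slows triglyceride clearance, was at 7.88, 20.0 and 19.4 FPKM in the combination libraries, against 128, 168 and 136 FPKM in the polyIC libraries (difference -3.20). Apoc1, which hepatocytes and macrophages make, was at 70.4, 57.2 and 63.3 FPKM in the combination libraries, against 523, 778 and 566 FPKM in the polyIC libraries (difference -3.25). The polyIC libraries were far above the combination libraries for all 3 genes. Thrsp, a regulator of fat synthesis, had the largest fall among the calls: 0.930, 1.41 and 1.28 FPKM in the combination libraries, against 29.0, 19.6 and 15.1 FPKM in the polyIC libraries (difference -3.29, SE 0.62, limma adjusted p = 0.0374). Other large falls were Serpina3k, a protease inhibitor (-3.19), Mup3, a major urinary protein (-3.17), Rbp4, the retinol carrier (-3.11), Gnmt, glycine N-methyltransferase (-3.03), and Ahsg, fetuin A (-3.02). Alb, albumin, was at 77.4, 121 and 144 FPKM in the combination libraries, against 640.2, 934 and 978 FPKM in the polyIC libraries, and its difference of -2.91 (SE 0.65) just missed the threshold (limma adjusted p = 0.0582).

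Families gathered by symbol after the values were seen show how wide this was. Of 33 serpin genes, 12 fell and 1, Serpine2, rose. Of 22 genes with apolipoprotein-like symbols, 9 fell, all of them apolipoprotein genes. The pattern used for these 22 also takes in Apobec symbols, which are not apolipoproteins. Of 5 inter-alpha-trypsin inhibitor genes, 4 fell. Of 38 cytochrome P450 genes, 3 fell (Cyp2c70, Cyp2d10 and Cyp3a25) and 28 were separate and lower, with a median of -1.32. Of 8 coagulation factor genes picked by symbol, F2, F11, F12 and F13b fell. F13a1, of the monocyte list, was outside this set and differed by -0.14 with overlap. Separate and higher were 3 serpin genes, 3 with apolipoprotein-like symbols, 1 cytochrome P450 gene and 1 coagulation factor gene. The shares over all genes tested were 1.09% for falls, 16.1% for separate and lower and 13.3% for separate and higher.

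Promoters of 3 plasma protein genes are shown for the letters GTTAATNAT, matched by HNF1 factors, which drive many liver genes. The motif was chosen after results were known. Alb lies at chr5:90460620-90460869 on the plus strand, with the motif 32 to 24 bases before the start. Gc, the vitamin D binding protein, lies at chr5:89457899-89458148 on the minus strand, with the motif 52 to 44 bases before the start. Fga, fibrinogen alpha, lies at chr3:83025903-83026152 on the plus strand, with the motif on the reverse strand 46 to 38 bases and a GAS element 234 to 226 bases before the start. Build, source and length are as for the promoters above, and capitals mark the motifs.
Alb: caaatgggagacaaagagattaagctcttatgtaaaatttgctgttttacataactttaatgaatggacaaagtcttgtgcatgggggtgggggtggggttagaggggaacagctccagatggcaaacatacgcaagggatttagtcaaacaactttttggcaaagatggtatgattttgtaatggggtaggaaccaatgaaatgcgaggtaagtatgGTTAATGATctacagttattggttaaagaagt
Gc: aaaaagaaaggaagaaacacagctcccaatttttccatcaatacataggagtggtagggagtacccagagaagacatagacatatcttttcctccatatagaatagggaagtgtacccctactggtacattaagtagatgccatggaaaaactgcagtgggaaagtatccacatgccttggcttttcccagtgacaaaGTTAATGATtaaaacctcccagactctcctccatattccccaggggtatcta
Fga: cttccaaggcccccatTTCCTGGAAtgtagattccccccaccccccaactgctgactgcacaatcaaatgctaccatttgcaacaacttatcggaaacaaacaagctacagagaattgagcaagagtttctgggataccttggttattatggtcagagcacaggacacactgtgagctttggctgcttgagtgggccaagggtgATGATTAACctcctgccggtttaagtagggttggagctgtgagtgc
The motif was found in 9 of 95 promoters of genes that fell (9.47%), beside 0.581% of the 9120 tested genes with a promoter and 0.866% of all 27025 promoters. Gc fell to 8.39, 14.4 and 18.8 FPKM in the combination libraries, against 78.2, 124 and 120.0 FPKM in the polyIC libraries (difference -2.90, limma adjusted p = 0.0374). Fga fell to 3.31, 7.07 and 8.03 FPKM in the combination libraries, against 32.9, 53.8 and 33.2 FPKM in the polyIC libraries (difference -2.55, limma adjusted p = 0.0402). In both the groups were well separated.

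The acute phase proteins, which hepatocytes release under IL-6, fell in part. Of 13 tested, Orm1, Orm2, Itih4 and Apcs fell and 10 were separate and lower (median -1.64). Orm2, an orosomucoid that carries drugs and binds lipids in plasma, was at 1.12, 1.71 and 1.25 FPKM in the combination libraries, against 11.2, 9.19 and 6.16 FPKM in the polyIC libraries. It had the smallest adjusted p of all genes (difference -2.03, SE 0.21, limma adjusted p = 0.012). Saa3, the serum amyloid that macrophages also make, and C3 differed by 0.55 and 0.36.

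Other liver cells followed the hepatocyte genes. Lyve1, a hyaluronan receptor of sinusoidal endothelium, was at 5.53, 2.17 and 2.49 FPKM in the combination libraries, against 21.3, 20.9 and 25.6 FPKM in the polyIC libraries (difference -2.50, SE 0.38, limma adjusted p = 0.0357). Clec4g, a sinusoidal lectin, was at 25.6, 11.7 and 14.9 FPKM in the combination libraries, against 91.1, 88.4 and 79.9 FPKM in the polyIC libraries (difference -2.32, SE 0.44, limma adjusted p = 0.0374). Both fell with a wide gap between the groups. In all, 14 of 15 sinusoidal genes were separate and lower, beside 16.1% of all genes (median -1.59). Stellate cell genes had 7 of 9 separate and lower and no call (median -0.82, or -1.38 with a pseudocount of 0.1). H19, a fetal liver RNA that reappears in liver tumours, was at 3.81, 3.85 and 1.2 FPKM in the combination libraries, against 14.5, 26.9 and 19.0 FPKM in the polyIC libraries (difference -2.47, SE 0.49, limma adjusted p = 0.0394). It was the member of the 13 oncofetal and keratin genes that fell, and 10 of them were separate and lower.

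**Figure D4:**
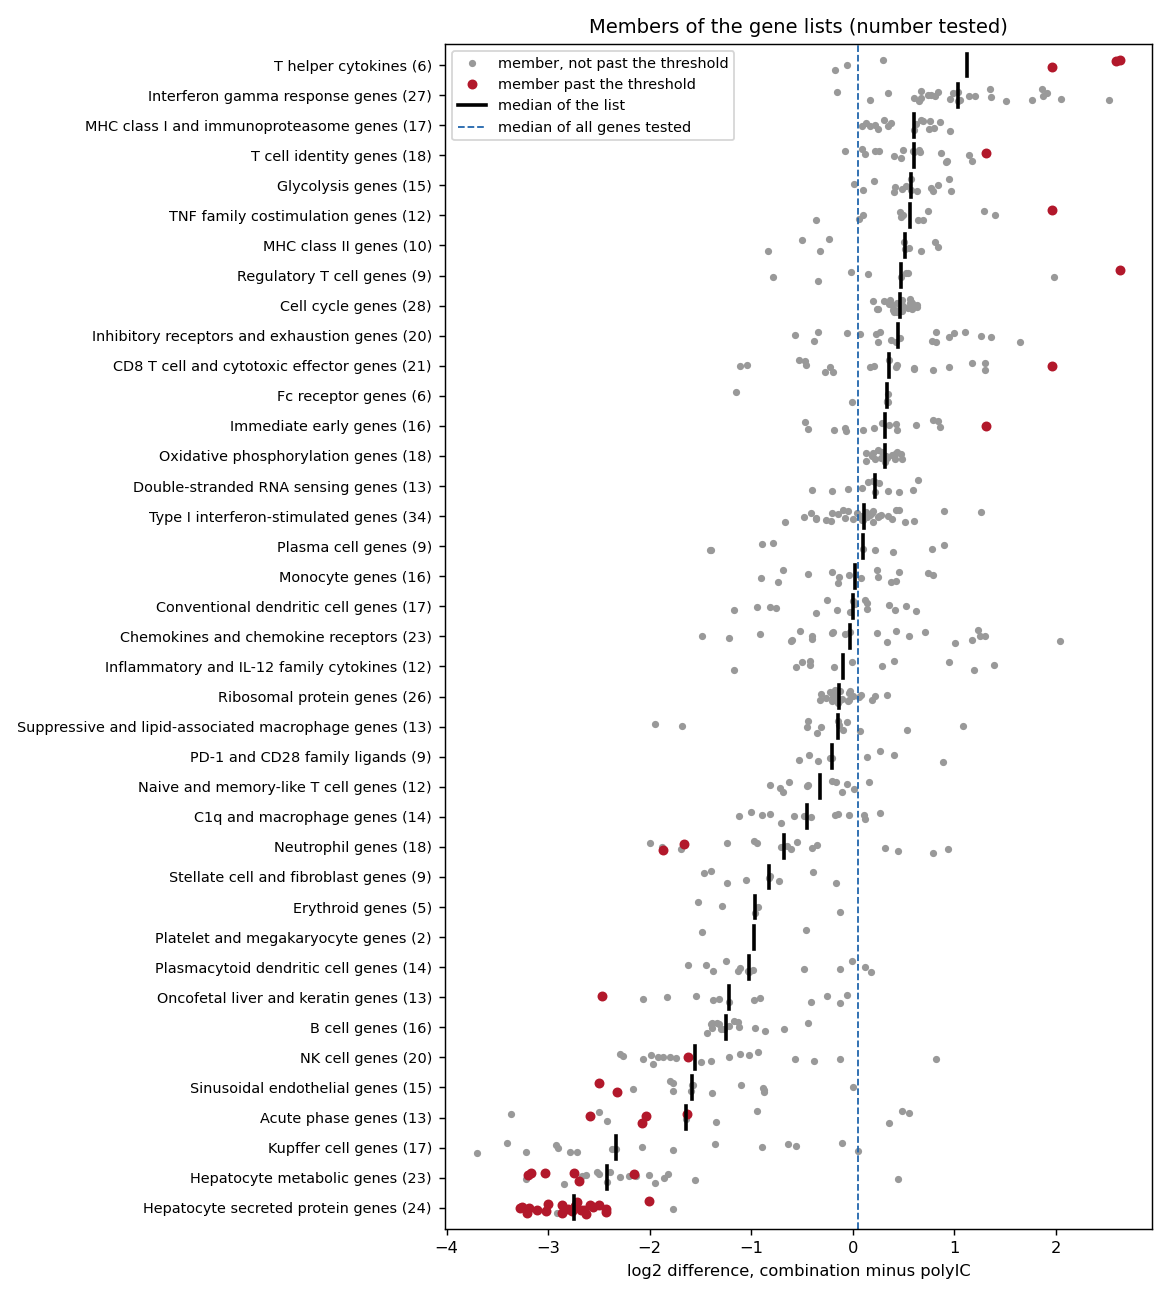
Each row is a gene list with its number of tested members, each point a member's log2 difference, combination minus polyIC, and the black bar the list median; the dashed line is the median of all 11978 genes, 0.06. T helper cytokines and interferon gamma response genes lie farthest right, at medians of 1.13 and 1.03, and hepatocyte lists farthest left, at -2.41 and -2.75.

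The remaining rises lay outside the cell type and cytokine lists. Gcg, which encodes proglucagon, the precursor of glucagon and GLP-1, had the largest rise among the calls. Its level was 46.4, 115 and 59.6 FPKM in the combination libraries, against 6.45, 7.35 and 3.37 FPKM in the polyIC libraries, with no overlap (difference 3.42, SE 0.56, limma adjusted p = 0.0367). Angptl2, a secreted angiopoietin-like protein, was at 7.29, 10.5 and 7.19 FPKM in the combination libraries, against 2.21, 2.14 and 1.90 FPKM in the polyIC libraries (difference 1.58, SE 0.21, limma adjusted p = 0.030). Serpine2, a protease inhibitor, was at 7.08, 4.63 and 6.94 FPKM in the combination libraries, against 1.24, 1.17 and 1.14 FPKM in the polyIC libraries (difference 1.71, limma adjusted p = 0.0394). The groups were separate for both.

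Ch25h makes 25-hydroxycholesterol, an antiviral sterol of activated macrophages, and was at 4.20, 7.87 and 3.26 FPKM in the combination libraries, against 0.945, 0.771 and 0.921 FPKM in the polyIC libraries (difference 1.63, limma adjusted p = 0.0495). Ocstamp, a fusion protein of osteoclasts and giant cells, was at 9.94, 15.2 and 6.55 FPKM in the combination libraries, against 2.93, 2.51 and 2.32 FPKM in the polyIC libraries (difference 1.62, limma adjusted p = 0.0449). B4galnt4, a glycosyltransferase, was at 3.41, 7.75 and 2.78 FPKM in the combination libraries, against 1.02, 0.768 and 0.811 FPKM in the polyIC libraries (difference 1.5, limma adjusted p = 0.0374). In all 3, combination replicate 1 was the highest library. Ier3, an early response gene, rose by 1.31 to 11.3, 13.7 and 11.1 FPKM in the combination libraries, against 3.87, 4.94 and 3.94 FPKM in the polyIC libraries (limma adjusted p = 0.0374). The other genes that rose, named here after their values were seen, were Gm15056, Htr7, Gng3, Gm4841, Car5b, Csf2rb2 and Fam81a, by 0.65 to 3.03. Fam81a reached 1 FPKM in the combination libraries alone and entered the test only through them.

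Some falls belonged to none of the lists, and these were likewise chosen after their values were seen. Car2, carbonic anhydrase, was at 16.3, 8.10 and 16.7 FPKM in the combination libraries, against 61.0, 53.8 and 52.7 FPKM in the polyIC libraries (difference -2.01, SE 0.36, limma adjusted p = 0.0374). Spry2, an inhibitor of receptor tyrosine kinase signalling, was at 4.57, 4.28 and 4.84 FPKM in the combination libraries, against 18.9, 15.0 and 16.1 FPKM in the polyIC libraries (difference -1.66, SE 0.25, limma adjusted p = 0.0357). Tnfsf8, the ligand of CD30, was at 3.09, 3.77 and 3.35 FPKM in the combination libraries, against 9.36, 7.81 and 8.0 FPKM in the polyIC libraries (difference -1.09, SE 0.23, limma adjusted p = 0.0467). Every combination library was below every polyIC library for these genes. Cd200r2, an activating relative of the CD200 receptor, fell by 1.84, the stress protein gene Sesn1 by 0.84, and the complement inhibitor gene Serping1 by 1.82 on the log2 scale (limma adjusted p = 0.0438, 0.0447 and 0.0357).

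Lists of growth and energy use held no call. Of 28 cell cycle genes all had positive differences, beside 57.5% of all genes, and the median was 0.47. In this list 5 were separate and higher, beside 13.3% of all genes. Mki67, the proliferation marker, was at 17.5, 15.4 and 13.2 FPKM in the combination libraries, against 14.6, 13.9 and 9.96 FPKM in the polyIC libraries (difference 0.25, limma adjusted p = 0.668). Of 15 glycolysis genes 7 were separate and higher (median 0.57), led by the glucose transporter Slc2a1 at 31.2, 33.8 and 25.0 FPKM in the combination libraries, against 17.0, 15.8 and 12.5 FPKM in the polyIC libraries (limma adjusted p = 0.0973). Oxidative phosphorylation genes had a median of 0.32, or 0.15 under quantile normalization, and ribosomal protein genes -0.14, or -0.06 without polyIC replicate 0 and -0.08 without combination replicate 2. Chemokines and their receptors had a median of -0.02, from -0.10 without polyIC replicate 2 to 0.16 without polyIC replicate 0, in which Ccl12, a monocyte-attracting chemokine, stood at 11.9, 38.7 and 19.0 FPKM in the combination libraries, against 5.77, 2.62 and 4.96 FPKM in the polyIC libraries (difference 2.04, limma adjusted p = 0.104). Il1b, an inflammasome cytokine, was at 98.3, 129.9 and 210.2 FPKM in the combination libraries, against 53.3, 104 and 25.8 FPKM in the polyIC libraries, with overlap (difference 1.39, limma adjusted p = 0.202).

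The other lists held no call apart from Ier3. For the counts below, 13.3% of all genes were separate and higher and 16.1% separate and lower. Naive and memory-like T cell genes had a median of -0.32, or -0.21 over those with a mean of at least 5 FPKM, with 3 of 12 separate and lower, such as Ccr7, the lymph node homing receptor, at 23.9, 11.6 and 22.5 FPKM in the combination libraries, against 29.9, 39.3 and 31.5 FPKM in the polyIC libraries (limma adjusted p = 0.366). Among 9 ligands of the PD-1 and CD28 families the median was -0.21, with 2 separate and higher and 3 separate and lower; it was -0.07 without combination replicate 1, -0.04 without polyIC replicate 1 and -0.40 with array quality weights. Plasma cell genes split 2 to 3 (median 0.11, and -0.09 without combination replicate 0), and Sdc1, the syndecan of plasma cells and hepatocytes, differed by -0.90 (limma adjusted p = 0.0707). Inflammatory and IL-12 family cytokines split 3 to 3 (median -0.09, and 0.07 without polyIC replicate 1); Il27, an inducer of Il10 in T cells, was at 6.40, 8.36 and 6.89 FPKM in the combination libraries, against 3.30, 2.79 and 1.81 FPKM in the polyIC libraries (difference 1.19, limma adjusted p = 0.303). Immediate early genes had a median of 0.32, or 0.21 without polyIC replicate 2, and 4 of 16 separate and higher. Suppressive and lipid-associated macrophage genes had a median of -0.15, and 0.01 without polyIC replicate 1. Fc receptor genes had a median of 0.34, or 0.20 without combination replicate 1 and 0.17 under quantile normalization, in which Fcgrt, the neonatal receptor that recycles IgG and albumin, differed by -1.15 (limma adjusted p = 0.255). Erythroid and platelet genes, of which 5 and 2 could be tested, had medians of -0.96 and -0.97 with no call. The erythroid median was -1.75 with a pseudocount of 0.1 and -0.52 without polyIC replicate 2.

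The same antibody difference could be read without polyIC, from antiPDL1 minus control, which shares no library with combination minus polyIC. There 32 genes passed (0.267%), 1 higher and 31 lower. A single call was shared, Clu, the secreted chaperone clusterin, which is 0.671% of the 149 and 3.12% of the 32. Of the 19 genes that rose with polyIC, 16 had the same sign without it (84.2%), and of the 130 that fell, 122 had it (93.8%), beside 76.1% of all genes. Their median differences were 1.58 with polyIC and 0.70 without it for the rises, and -2.18 with polyIC and -1.0 without it for the falls. The larger size with polyIC is partly fixed by choosing the genes there.

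Differences in both settings can be set side by side for genes named above; the difference between settings passed for none of Tnfrsf4, Cd4 and Klrc1 (interaction, limma adjusted p = 0.999 each) and was not tested for lists. Tnfrsf4 was at 42.2, 12.7 and 12.4 FPKM in the antiPDL1 libraries, against 3.02, 6.12 and 5.33 FPKM in the control libraries, a difference of 1.82 beside 1.96 with polyIC. The interferon gamma response median was 1.13 without polyIC and 1.03 with it, and antiPDL1 replicate 2 stood near the control libraries at a summed 1240 FPKM, against 4153 FPKM in the highest antiPDL1 library. Cd4 was at 43.1, 35.3 and 44.2 FPKM in the antiPDL1 libraries, against 26.1, 42.5 and 61.8 FPKM in the control libraries, a difference of -0.01. The NK list had a median of 0.08 without polyIC and -1.55 with it. Klrc1 was at 18.4, 32.5 and 31.0 FPKM in the antiPDL1 libraries, against 19.6, 23.6 and 47.3 FPKM in the control libraries, so its polyIC libraries were the high ones of the 4 groups.

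The combination group stood at the end of the 4 groups in most of the rises and most of the falls. Among the 19 rises, the combination mean was the highest of the 4 groups in 17. Among the 130 falls, the combination mean was the lowest in 115, and the highest group was polyIC in 66 and control in 64. Over all 11978 genes tested, combination was highest in 4482 and lowest in 3439. On the same count polyIC was highest in 1522 and control in 4366. The rises and falls were chosen by combination against polyIC, which partly fixes where these 2 groups stand. Ttr was among those highest in control, at 43.8, 19.6 and 113 FPKM in the antiPDL1 libraries, against 269.9, 191 and 90.7 FPKM in the control libraries. Elane, Mpo, Orm2, Car2 and the 6 Klr genes that fell were highest in polyIC, with Elane at 0.130, 0.480 and 0.220 FPKM in the antiPDL1 libraries, against 0.0452, 0.0279 and 0.211 FPKM in the control libraries. For Elane, Mpo and Klrb1 that place was fixed by the filter, since they reached 1 FPKM in the polyIC libraries alone.

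**Figure D5:**
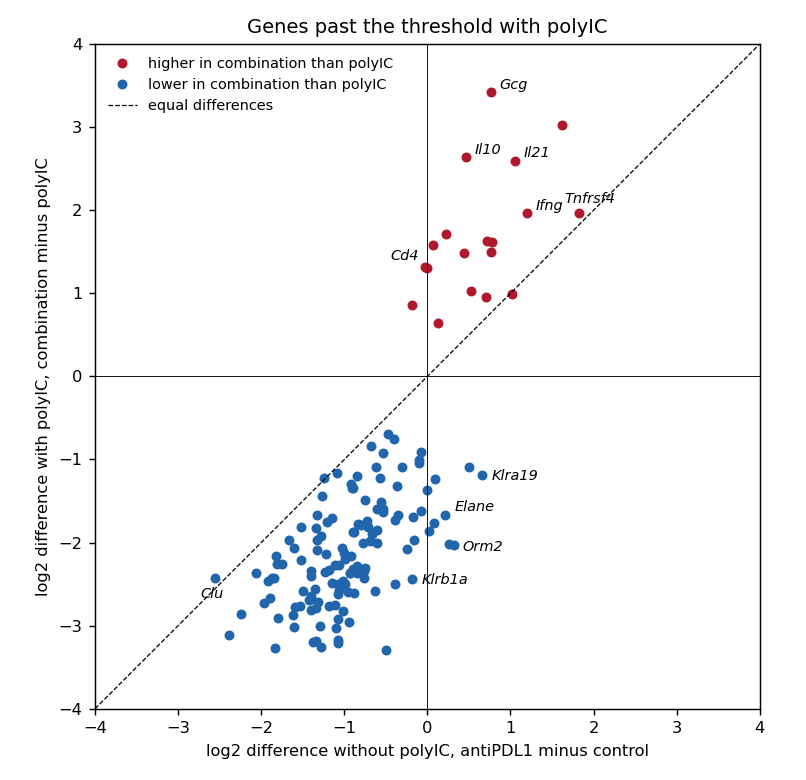
Each point is 1 of the 149 genes that passed, with its log2 difference without polyIC (antiPDL1 minus control) on the horizontal axis and with polyIC (combination minus polyIC) on the vertical axis; the dashed line marks equal differences. Tnfrsf4 and Clu lie near the line, while Cd4 and Ier3 lie near 0 on the horizontal axis and Orm2, Elane and Klra19 lie to the right of it.

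The interaction contrast tested whether the antibody difference itself depended on polyIC. It passed for 2 of 11978 genes (0.0167%), and 288 genes had an unadjusted p under 0.05, among them 10 of the 19 rises and 52 of the 130 falls. The rises and falls, Cd4, Il10, Il21 and Gcg included, were chosen by combination minus polyIC, which is part of this contrast. Small interaction p-values among them are therefore partly fixed by that choice. Orm2 was 1 of the 2, at -2.35 (SE 0.30, limma adjusted p = 0.0445), with 1.35, 0.796 and 0.738 FPKM in the antiPDL1 libraries, against 0.679, 0.703 and 0.329 FPKM in the control libraries. The other was Mir760, a microRNA gene listed at 0 in the 9 libraries of combination, polyIC and antiPDL1 and at 7.86, 10.9 and 4.21 FPKM in control (3.04, limma adjusted p = 0.0207). An exact 0 in such a table can be a failed estimate, and 1 control library under 5 FPKM kept this gene outside the rule that removes them. Next in order were Klra19 (-1.84), Elane (-1.88), the keratinization gene Sprr1a (3.54) and Angptl2 (1.51), none of which passed (limma adjusted p = 0.202, 0.202, 0.496 and 0.653). Sprr1a was near 0 in combination and polyIC and its value comes from control. For Cd4, Il10, Il21 and Gcg the interaction had an unadjusted p of 0.00508, 0.0106, 0.00567 and 0.00622, and for Ifng and Tnfrsf4 of 0.137 and 0.811; none passed after adjustment (limma adjusted p = 0.999).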

How the data were processed

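RNA of CD45-positive liver cells was measured in 12 libraries, 3 in each of 4 groups. The authors' deposited values were taken to be FPKM, made with Cuffdiff on the mouse build mm9 per the submitters' processing notes. The table does not name the unit, which was read from its decimals and unequal library totals. For the aligner, the annotation, the Cuffdiff version and the scaling, the entry is: not given in the sources used here. Read counts are not used here, so depth is known only in relative terms (59 of 66 library pairs, values under 0.1 FPKM) and no counting interval was computed.

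Groups were compared with limma 3.58.1 in R 4.3.3 (limma-trend, two-sided, log2(FPKM + 1), 1 fit over 12 libraries, Benjamini-Hochberg adjustment over 11978 genes), tested on simulated data; statmod 1.5.0, Python 3.11.15, numpy 2.4.6, pandas 2.3.3, scipy 1.17.1 and matplotlib 3.10.9 were also used. Of the 24319 entries, 5460 were 0 in every library, 27 had date-like names, and 22 were left out as failed estimates (12 of them small RNA genes; among the others Actb, Apoe and Cd74). "Separate" means that all 3 values of a group lie beyond all 3 of the other; the smallest p of an exact permutation test at this size is 0.1.

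The members, the 39 gene lists (639 genes), the 34 single genes and the tests were chosen with earlier results of these data known. Genes were named by a rule: the 10 largest rises and falls among separate calls (predicted genes, small RNAs and receptor segments excepted), up to 3 passing members of each list or the 2 with the smallest p, the single genes, and the 5 smallest p of the interaction; some of these genes are not reported here. For the largest rises and falls, separation was a condition of the choice. Promoters came from RefSeq on GRCm38.p6, a build other than the files' mm9, and were matched by symbol. The alternatives tried were no filter, a mean of at least 5 FPKM, a pseudocount of 0.1, quantile normalization, median-of-ratios rescaling, the 6 libraries alone, a replicate block, array quality weights, keeping the failed estimates, and leaving out each library.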

Additional observations from a re-analysis of the deposited data

Results flagged for a closer look

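The antibody difference with polyIC stood against that without it in 3 genes, 2 by the test of the interaction and 1 by groups that lay apart in opposite directions. Mir760 had an interaction of 3.04 on the log2 scale (limma adjusted p = 0.0207), from 0 in every combination, polyIC and antiPDL1 library and 7.86, 10.9 and 4.21 FPKM in control. An exact 0 in such a table can be a failed estimate.

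Orm2 had an interaction of -2.35 (limma adjusted p = 0.0445): 1.12, 1.71 and 1.25 FPKM in combination, against 11.2, 9.19 and 6.16 FPKM in polyIC, and 1.35, 0.796 and 0.738 FPKM in antiPDL1, against 0.679, 0.703 and 0.329 FPKM in control. Klra19 was lower in every combination library than in any polyIC library and higher in every antiPDL1 library, at 0.850, 1.40 and 2.06 FPKM, than in any control library, at 0.297, 0.508 and 0.771 FPKM. Its interaction of -1.84 did not pass (limma adjusted p = 0.202).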

How the results depend on the processing

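The 51 named genes that passed kept their direction under every alternative run. They stayed past the threshold in 277 of 438 fits with another setting and 263 of 612 with a library of any of the 4 groups left out. With 1 of the 6 compared libraries left out, only 5 of the 149 calls passed in any fit. None of the 149 passed in all 12 leave-outs. Against 149 calls in combination versus polyIC, a pseudocount of 0.1 gave 342, no filter 23, a mean of at least 5 FPKM 75, quantile normalization 3, the 6 libraries alone 1358 and array quality weights 3661. Leaving out 1 library gave 0 to 534. Replicate numbers showed little pairing between combination and polyIC (correlations of same-numbered deviations from -0.048 to 0.072). Over all 18 same-numbered pairs of libraries the correlations ran from -0.29 to 0.32. The fit with a replicate block gave 2 calls. For antiPDL1 versus control (32), the counts were 20 with a pseudocount of 0.1, 139 with no filter, 5 with a mean of at least 5 FPKM, 2594 with array quality weights and 1 to 2087 with a library left out. For the interaction (2) they were 0 with a pseudocount of 0.1 or a mean of at least 5 FPKM, 12 with array quality weights or the failed estimates kept, and 0 to 5 with a library left out. Of the 34 single genes, Cd4 and Ifng passed; the number was 4 with a pseudocount of 0.1, 0 with no filter, quantile normalization or the replicate block, 1 with a mean of at least 5 FPKM or median-of-ratios rescaling, 20 with the 6 libraries alone, 21 with array quality weights and 0 to 10 with a library left out. The cause of these shifts was not tested, beyond the number of genes and libraries that each alternative sets. List medians near 0 changed sign under some alternatives (monocyte, conventional dendritic cell, plasma cell, inflammatory cytokine, chemokine, type I interferon and suppressive macrophage genes), while those of hepatocyte metabolic, Kupffer, NK, B cell and interferon gamma response genes stayed within -3.0 to -2.29, -2.63 to -1.95, -1.81 to -1.39, -1.48 to -0.94 and 0.90 to 1.07.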
